A study of Mus musculus with 4 samples.

Results

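The interleukin-6 family of cytokines, its receptors and the Stat3 feedback loop were followed in mouse hepatic stellate cells exposed to IL17A, to medium from adipose tissue-derived stem cells, or to both. The genes were 10 named members: the ligands Il6, Lif, Il11 and Clcf1, the receptors Il6ra, Il6st, Osmr and Lifr, the transcription factor Stat3 and its inhibitor Socs3. Every non-control probe carrying one of these gene names was taken, which gave 17 of the 41174 probes on the array and 9 of its 26683 genes. No probe carried the name Lif, so Lif was not analysed here. Il6, Il11, Clcf1 and Il6st had 1 probe each, Il6ra, Osmr, Stat3 and Socs3 had 2 each, and Lifr had 5.

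The cells were IMS/N, a line of hepatic stellate cells from the liver of normal 129/Sv mice that was immortalized with SV40 and is therefore a single growing line rather than quiescent liver tissue. The 4 groups were untreated IMS/N cells, IMS/N cells with recombinant murine IL17A, IMS/N cells with ADSC medium, and IMS/N cells with both, each measured as total RNA on 1 one-colour Agilent array. ADSC medium is culture medium of adipose tissue-derived stem cells, which came from the inguinal subcutaneous fat of male C57BL/6J mice aged 8 to 10 weeks. How much IL17A or medium was used, and for how long, the sources used here do not give.

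Cytokines of this family bind a specific receptor chain and then share the signalling chain gp130, encoded by Il6st. Oncostatin M and leukaemia inhibitory factor recruit Osmr or Lifr as the partner of gp130. The receptor complex activates Janus kinases, which phosphorylate Stat3, and Stat3 induces Socs3, an inhibitor that binds the activated receptor and damps the signal. In the liver, interleukin-6 is known as the main inducer of acute phase proteins, and stellate cells are one of its sources. IL17A acts through its own receptor, mainly on NF-kappa-B, C/EBP factors and mRNA stability.

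Values below are log2 levels, that is, log2 of the processed signal after quantile normalization over the 4 arrays, given in the order untreated, IL17A, ADSC medium, both. A level depends on the probe, so levels are compared between arrays for 1 probe and not between genes. The exception is the summed level of a marker list, the log2 of the added signals of its genes, which its brightest probes dominate. With 1 array a group, no difference has a replicate check, and a gene is called higher or lower when 2 arrays differ at least 2-fold (a log2 difference of 1) and the probe is well above background on the brighter one. Between 58.1% and 60.5% of the 43379 non-control spots were well above background on an array, and the probe used for each of the 9 genes was so on all 4. The technical SD of a difference, from repeated spots of the same probe, was 0.311 at levels below 5, 0.138 from 5 to 7 and 0.0857 above 7. A wider estimate was taken from the spread over genes of the IL17A difference with medium minus that without it, divided by the square root of 2 to stand for a single difference, and was 0.431, 0.255 and 0.113. This is called the array spread below and is taken at the lower of the levels compared. The repeated spots hold no variation between cultures. The array spread comes from all 4 cultures and mixes that variation with array error and true changes. It is a value over genes of a level class, not of any 1 gene. An effect shared by both arrays of a slide cancels in it, so for a comparison across slides the array spread leaves out any slide effect. Slide 1 held the untreated and IL17A arrays and slide 2 held those with medium, so an effect of medium and an effect of slide cannot be told apart, whereas IL17A was compared within a slide.

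Of 12 stellate cell markers, 8 were well above background on at least 1 array and 6 on all 4. Of all 26683 genes, 16668 and 14480 were. The marker counts are near those shares, so they do not by themselves establish the identity of the cells. Lrat was so only on the array with both, Des was not on the IL17A array, and Reln, Hand2, Rgs5 and Gfap were on none. Of 6 endothelial markers, Kdr and Stab2 were above background on all 4 arrays, and Pecam1, Cdh5, Lyve1 and Tek on none. None of the 6 measured hepatocyte markers was above background on any array. Of 8 macrophage and leukocyte markers, 5 were above background on at least 1 array, with Adgre1, Clec4f and Itgam on none and Ptprc only on the array with both. Their summed log2 level was 9.11 in untreated cells, 10.39 with IL17A, 9.08 with medium and 9.77 with both, higher on the IL17A arrays, and Cd14 is the brightest signal in that sum, at 8.87, 10.28, 8.71 and 9.51. Cd14 and Csf1r were called higher with IL17A against untreated, as were 2.17% of all genes tested. Cd68 had IL17A differences of 0.09 and -0.04 and Lyz2 of -0.42 and -0.17 without and with medium. All 6 stellate markers measured on both the untreated and IL17A arrays were lower with IL17A, with a median of -0.45 and 0 called, and Col1a1 at -0.88 and Col1a2 at -0.90. The summed log2 level of the stellate list was 16.95, 16.28, 16.61 and 16.14, and that of the 4 cholangiocyte markers, of which Epcam was on no array, was 10.00, 9.15, 10.15 and 9.25. Krt19 of the latter was called lower with IL17A, at -1.39 without medium and -2.21 with it, as were 2.29% and 1.82% of all genes tested. The part of these shifts in the results below was not tested. Fewer cells of a type and less RNA per cell cannot be told apart in such bulk samples.

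Of the ligands, Il6, the founding cytokine of the family, differed most. Its probe (mm9, chr5:30346362-30346421) had log2 levels of 5.04, 11.80, 4.99 and 10.47. Both arrays with IL17A were high and both without it were low, and medium alone left Il6 at the untreated level. The probe was spotted 10 times on each array, and the SD over those spots was 0.146, 0.0627, 0.0764 and 0.0627. Il6 was 108-fold higher with IL17A than in untreated cells, a log2 difference of 6.76. In the presence of ADSC medium the IL17A difference was 44.7-fold, or 5.48 on the log2 scale. Adding medium to IL17A thus went with a level 2.52-fold lower, a log2 difference of -1.33. This is 11.8 times the array spread at that level, which leaves out any slide effect. Il6 with both treatments still stood 43.1-fold above untreated cells. Under another background correction (normexp), which raises dim signals, the IL17A differences were 5.32 without medium and 4.07 with it.

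The 250 bases before the start of Il6 are shown because this gene carries the widest difference in the family. They lie at chr5:30012864-30013113 of GRCm38.p6 on the plus strand, are taken from RefSeq and are written in the direction of the gene. Promoters of 9 of the 10 named genes were matched, and Clcf1 was not among them. Each was searched on both strands for an NF-kappa-B motif (GGGANNNNCC), a C/EBP motif (TTGNNCAA), an AP-1 motif (TGANTCA) and a STAT motif (TTCNNNGAA). Capitals mark the matches.
Il6: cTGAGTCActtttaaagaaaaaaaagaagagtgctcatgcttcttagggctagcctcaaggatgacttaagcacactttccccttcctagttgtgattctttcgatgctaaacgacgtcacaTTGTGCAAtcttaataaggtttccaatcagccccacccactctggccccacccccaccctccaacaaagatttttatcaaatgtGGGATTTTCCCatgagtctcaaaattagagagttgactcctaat
From the 5′ end, the capitals are an AP-1 match 249 to 243 bases upstream, a C/EBP match 128 to 121 bases upstream, and NF-kappa-B matches on both strands that overlap between 44 and 34 bases upstream. Among all 32851 mouse promoters searched, 17.6% held the NF-kappa-B motif, 5.65% the C/EBP motif, 6.75% the AP-1 motif and 7.02% the STAT motif. A match describes the letters of the window and is not a measured binding site.

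Il11, a ligand linked to fibroblast activation and fibrosis, followed medium rather than IL17A. Its levels were 5.51, 5.56, 6.72 and 6.31 (mm9, chr7:4724847-4724906). The untreated and IL17A arrays were alike and both medium arrays were higher. Medium alone went with a 2.32-fold higher level, a log2 difference of 1.21. That is 4.75 times the array spread, which leaves out any slide effect. The call was lost under normexp background correction, where the difference was 0.58. On top of IL17A, medium went with a difference of 0.75, short of 2-fold. The IL17A difference was 0.05 without medium and -0.41 with it, both within 2 array spreads.

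Clcf1, which signals through the ciliary neurotrophic factor receptor and gp130, had levels of 7.70, 8.12, 8.19 and 8.74 (mm9, chr19:4222480-4222539). Each treatment alone gave a small step, 0.42 with IL17A and 0.50 with medium, and the level with both was the highest of the 4. With both, Clcf1 was 2.05-fold above untreated cells, a log2 difference of 1.04, and under normexp correction it fell short of 2-fold at 0.91. The IL17A difference in medium, 0.54, was close to that without it.

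**Figure D1:**
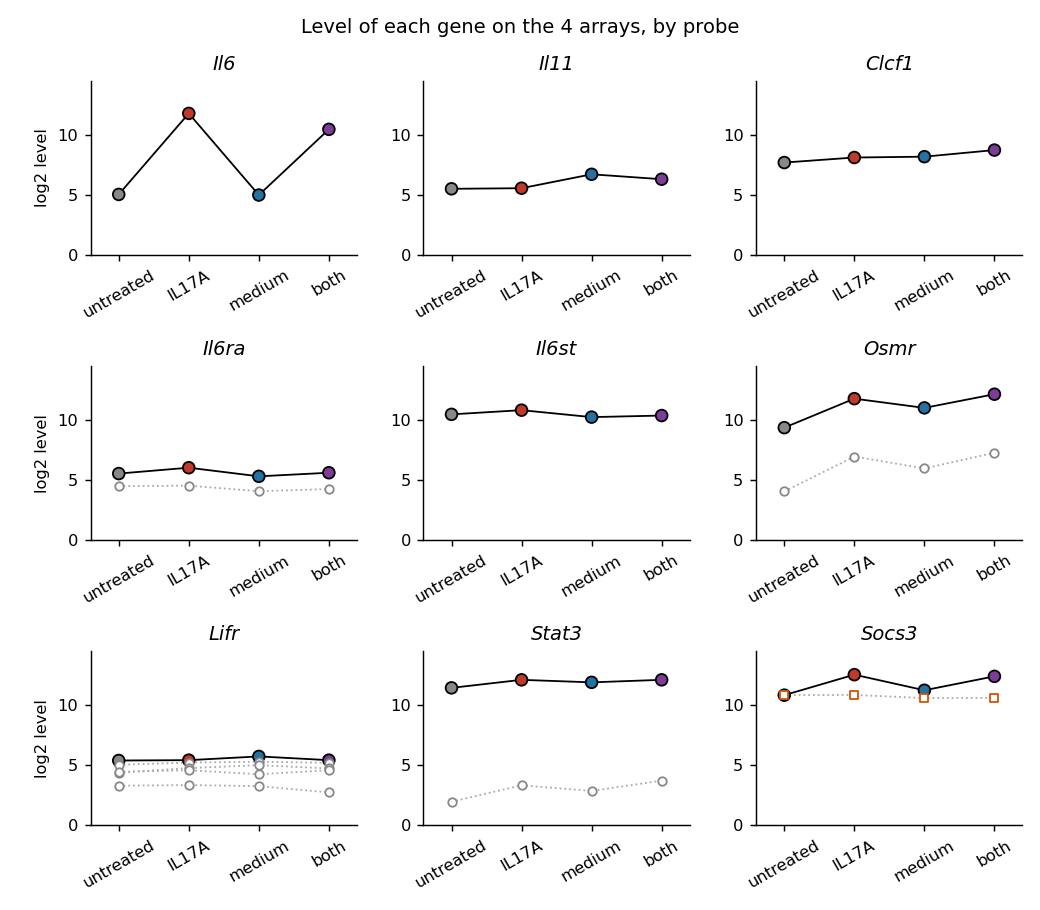
Log2 level (vertical axis) of the 9 measured genes on the untreated, IL17A, medium and both arrays, with 1 panel per gene. Large filled points joined by solid lines are the probe used for the gene, small open points joined by dotted lines are its other probes, and the open squares in the Socs3 panel are a probe in the opposite orientation to the gene. Il6 rose from 5.04 to 11.80 with IL17A, while Il6st and Lifr stayed within 1 log2 unit over the 4 arrays.

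Among the receptors, Osmr, the signalling partner of gp130 for oncostatin M, was the member called higher both with IL17A and with medium. Its levels were 9.37, 11.79, 11.02 and 12.16 (mm9, chr15:6763686-6763745). The untreated array was the lowest of the 4 and the array with both the highest. IL17A alone went with a 5.36-fold higher level, a log2 difference of 2.42, and medium alone with a 3.15-fold higher level, a log2 difference of 1.66. With both, the level was 6.95-fold above untreated cells, a log2 difference of 2.80, which is less than the sum of the differences for each alone. The IL17A difference in medium was accordingly 1.14, or 2.21-fold. A second, dimmer Osmr probe had levels of 4.05, 6.96, 5.97 and 7.27, the same order of arrays, with differences of 2.91 for IL17A and 1.92 for medium.

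The promoter of Osmr is shown beside that of Il6 because both genes were higher with IL17A on both slides. It lies at chr15:6874314-6874563 of GRCm38.p6 on the minus strand and is written in the direction of the gene.
Osmr: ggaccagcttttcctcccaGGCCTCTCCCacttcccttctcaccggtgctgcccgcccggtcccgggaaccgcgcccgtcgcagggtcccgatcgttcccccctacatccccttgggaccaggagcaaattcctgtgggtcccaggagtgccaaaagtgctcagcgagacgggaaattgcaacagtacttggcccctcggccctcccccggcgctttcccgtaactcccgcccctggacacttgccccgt
The capitals mark an NF-kappa-B match on the opposite strand, 231 to 222 bases upstream, the single match of the 4 motifs in this window.

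The shared chain Il6st had levels of 10.48, 10.83, 10.25 and 10.38 (mm9, chr13:113296586-113296645). The IL17A array was the highest, and no pair of arrays differed 2-fold. IL17A alone went with a difference of 0.35, which is 3.12 times the array spread, and medium added to IL17A with -0.45. In medium the IL17A difference was 0.13, close to the array spread, and it changed sign to -0.11 under median scaling.

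Il6ra, the chain that binds interleukin-6 itself, had levels of 5.54, 6.03, 5.31 and 5.61 (mm9, chr3:89680743-89680802). Its differences ran from -0.42 for medium added to IL17A to 0.49 for IL17A alone, each under 2 array spreads. A second, dimmer Il6ra probe gave 0.04 for IL17A alone, so the probes did not share that difference. Lifr, the receptor of leukaemia inhibitory factor, had levels of 5.39, 5.42, 5.73 and 5.42 on its brightest probe, and no difference past 0.34 in size. Its other 4 probes had levels between 2.73 and 5.29, and their IL17A differences without medium lay between 0.05 and 0.37. For these receptors a difference near 2-fold was therefore not seen on the probes used, though with low signals a small one could not be resolved.

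Stat3, the transcription factor downstream of gp130, had levels of 11.45, 12.12, 11.91 and 12.12 (mm9, chr11:100749598-100749657). The untreated array was the lowest, both IL17A arrays were equal, and the medium array lay between. IL17A alone went with a 1.59-fold higher level, a log2 difference of 0.67 that is 5.94 times the array spread but short of 2-fold. In medium the IL17A difference was 0.20. The probe was spotted 10 times, with an SD over spots between 0.0308 and 0.0468. A second Stat3 probe, not well above background on the untreated array, had levels of 1.95, 3.32, 2.85 and 3.71, with the untreated array again the lowest. With both probes averaged, Stat3 passed 2-fold, at 1.02 for IL17A alone and 1.22 for both treatments against untreated. That average takes the dim untreated value of the second probe, 1.95, as measured, without raising it to the lowest value well above background. The 2-fold result therefore depends on a value that was not well above background.

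Socs3, the feedback inhibitor, had levels of 10.84, 12.55, 11.25 and 12.41 (mm9, chr11:117827480-117827539). Both IL17A arrays were high, and the medium array lay between them and the untreated array. IL17A alone went with a 3.28-fold higher level, a log2 difference of 1.72, and IL17A in medium with a 2.24-fold higher level, a log2 difference of 1.16. Medium alone gave 0.41, and medium added to IL17A gave -0.15, which is 1.29 array spreads. A second probe listed as Socs3 (mm9, chr11:117828658-117828717) is placed on the strand opposite to the gene, and its levels of 10.85, 10.86, 10.60 and 10.62 showed no IL17A difference. Of the probes named through a RefSeq accession, 99.7% lie on the strand of their gene. Of other probes with a gene symbol, the kind this one is, 97.1% do. The brighter probe stood for Socs3, as for the other genes, so the opposite-strand probe was described but not used. With both probes averaged, the IL17A differences were 0.86 and 0.59, short of 2-fold.

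The promoter of Socs3 is shown because it is the window among the 9 genes with a STAT match. It lies at chr11:117969367-117969616 of GRCm38.p6 on the minus strand and is written in the direction of the gene.
Socs3: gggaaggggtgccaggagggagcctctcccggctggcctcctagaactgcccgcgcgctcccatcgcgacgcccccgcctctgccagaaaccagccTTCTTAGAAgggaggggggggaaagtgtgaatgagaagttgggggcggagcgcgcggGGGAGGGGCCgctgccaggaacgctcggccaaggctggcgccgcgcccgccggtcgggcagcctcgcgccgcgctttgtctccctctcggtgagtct
The first capitals are the STAT match, 154 to 146 bases upstream, and the second an NF-kappa-B match, 97 to 88 bases upstream. The Stat3 window held no match to any of the 4 motifs.

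Counted over the 9 genes, IL17A against untreated gave 3 higher (Il6, Osmr and Socs3) and 0 lower, where 2.17% of 15869 genes tested were higher and 2.29% lower by the same rule. The median log2 difference of the 9 was 0.49, against -0.00 over all genes tested. IL17A in medium gave the same 3 higher and 0 lower, against 2.86% and 1.82% of 16068 genes. Medium alone gave 2 higher (Il11 and Osmr) and 0 lower, against 2.45% and 2.97% of 16102 genes. Medium added to IL17A gave 0 higher and 1 lower (Il6), against 3.22% and 3.11% of 15876 genes, and the median of the 9 was 0.00. With both treatments against untreated, 4 were higher (Il6, Clcf1, Osmr and Socs3) and 0 lower, against 3.38% and 4.29% of 16241 genes. These comparisons share arrays and are not independent of each other, and under median scaling Osmr and Socs3 fell short of 2-fold for IL17A in medium, at 0.91 each.

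The IL17A difference was measured on both slides, which allowed a single test over the 4 arrays. A linear model with the pair of arrays as a block, fitted with limma to 15472 genes and adjusted by Benjamini-Hochberg, called 2.54% of genes higher and 3.79% lower at an adjusted p under 0.05. It has 1 residual degree of freedom, so its spread is largely borrowed from other genes and its p-values are approximate. The pairs are the arrays without and with medium, not replicate cultures. A gene's own spread is the disagreement between the pairs, so a true difference in the IL17A effect between them counts as error. The p-values therefore do not measure variation between cultures of the same treatment. Il6 had an IL17A effect of 6.12 ± 0.267 (log2, SE; limma adjusted p = 0.000169), higher in both pairs. Socs3 had 1.44 ± 0.12 (limma adjusted p = 0.00213) and Osmr 1.78 ± 0.254 (limma adjusted p = 0.0116), each higher in both pairs. Clcf1, at 0.48 ± 0.104, was just past the threshold (limma adjusted p = 0.0449). Stat3, at 0.44 ± 0.106, was not (limma adjusted p = 0.065), nor was Il6st, at 0.24 ± 0.0772 (limma adjusted p = 0.146), and Il6ra, Il11 and Lifr had adjusted p of 0.375, 0.743 and 0.846 in the same limma fit. These calls depend on the fit: without a filter on dim probes, without a trend in the spread, or without the block, none of the 9 genes passed.

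Whether medium changed the IL17A difference was described as the IL17A difference in medium minus that without it. It was -1.28 for Il6 and -1.28 for Osmr, and each was lower than in all but 0.6% of the 14480 genes above background on every array, whose median was -0.03. The second Osmr probe gave -1.61. For Osmr the spread of such a value is 0.16. The Osmr level was higher with medium alone than untreated, and with both it was not below that with IL17A. For Il6 the level without IL17A was the same with and without medium, and the level with IL17A was lower in medium. The spread at the low Il6 levels is 0.61 for a single-spot probe, and the 10 spots per array of Il6 narrow the spot error but not the array error. Socs3 gave -0.55, Stat3 -0.47, Il11 -0.46, Lifr -0.34, Il6st -0.22, Il6ra -0.18 and Clcf1 0.12. With 1 array a group, none of these has a test.

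**Figure D2:**
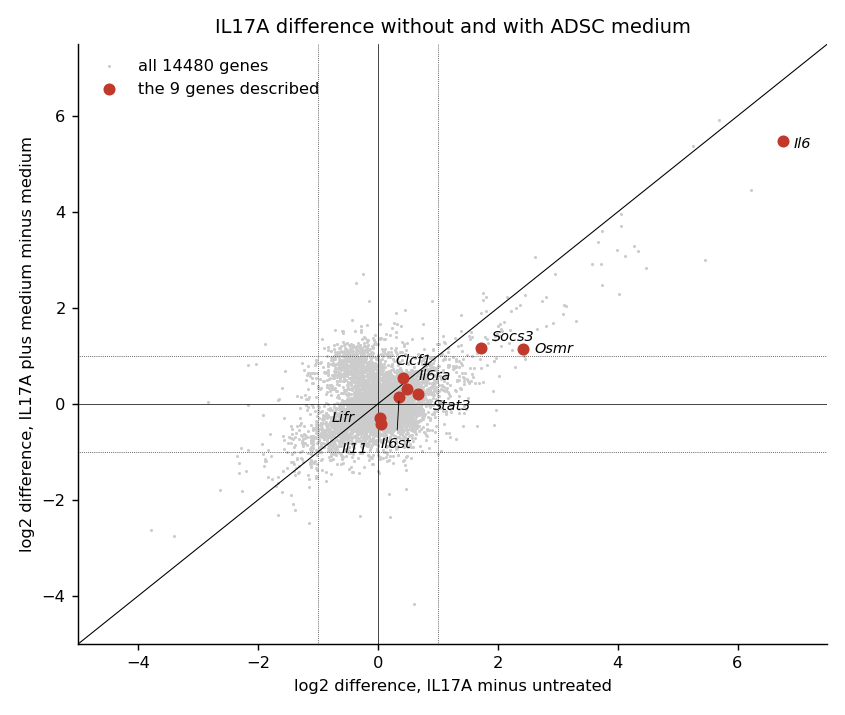
Log2 difference for IL17A without medium (horizontal axis) and with medium (vertical axis) for the 14480 genes well above background on all 4 arrays (grey) and the 9 genes described (red). The solid diagonal marks equal differences and dotted lines mark 2-fold. Il6 (6.76 and 5.48), Osmr (2.42 and 1.14) and Socs3 (1.72 and 1.16) lie in the upper right below the diagonal, and the other 6 lie inside the 2-fold lines.

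The grey points above the horizontal 2-fold line at small negative horizontal values form a separate cloud. After it was seen, calls were recounted on probes matched to a RefSeq accession. For IL17A in medium this left 203 of 13205 genes tested higher (1.54%) in place of 460 of 16068 (2.86%). For medium added to IL17A it left 1.74% higher in place of 3.22%. The probes used for the 9 genes are all of the matched kind, so the matched shares are the nearer comparison for them.

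**Figure D3:**
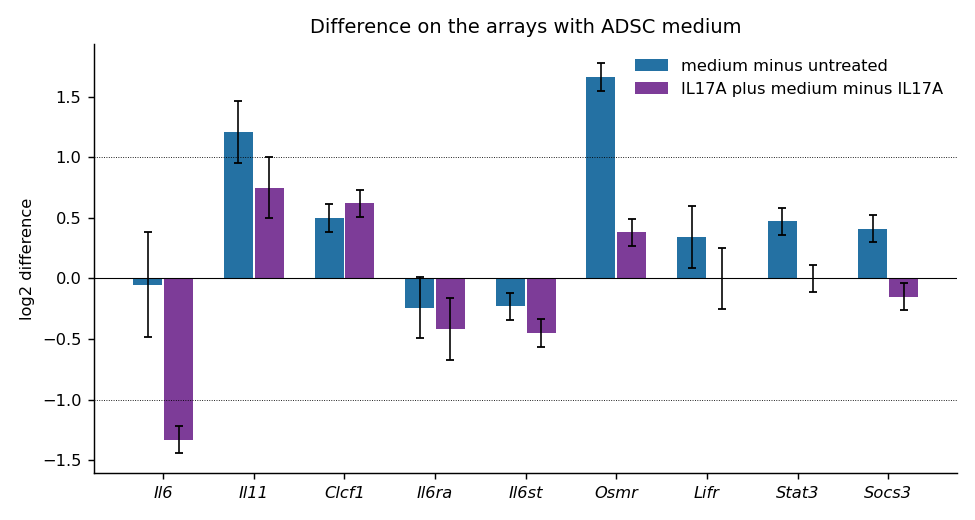
Log2 difference of the 9 genes (vertical axis) for medium alone against untreated (blue) and for medium added to IL17A (purple). Bars are single differences between 2 arrays on different slides, and dotted lines mark 2-fold. Error bars are 1 array spread at the lower of both levels and leave out any slide effect. Osmr (1.66) and Il11 (1.21) pass 2-fold with medium alone, and Il6 (-1.33) with medium added to IL17A.

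The authors' deposited tables hold 2 lists of probes without values. The authors' deposited table of probes higher with IL17A than untreated has 861 probes and includes Il6, Osmr, Socs3 and Stat3. The authors' deposited table of probes higher with IL17A than with IL17A plus medium has 1193 probes, and Il6 is the member of the family in it. They hold 4 and 1 of the 9 measured genes, each through 1 probe. That is 4 and 1 of the 17 probes of these genes, against 2.09% and 2.9% of all probes. The second probes of Osmr, Stat3 and Socs3 are in neither list. In the quantile normalized values, 57.4% of the first table and 50% of the second differed at least 2-fold. Stat3, at 0.67, is among the probes listed below 2-fold.

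The rest of the pathway was described from lists of genes that are not members. Of the other gp130 ligands and receptors, 8 of 11 were measured for IL17A against untreated. In either direction 0 were called, against 2.17% higher and 2.29% lower of all genes tested, so few calls would fall on so short a list. The median difference was -0.28 over the 6 above background on both arrays. Cntfr, the receptor of ciliary neurotrophic factor, was dim in untreated cells, not well above background, and was at least 2.62-fold higher with medium. Cntf, Ctf1 and Il11ra1 had IL17A differences of -0.31, -0.28 and -0.27.

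Of 23 genes for the kinases, other STATs and negative regulators, 0 were called in any of the 5 comparisons. Over all genes tested, 1.82% to 4.29% were called per direction, so few calls would fall on a list this short. The median differences ran from -0.04 to 0.15. Socs2, another member of the suppressor family, had levels of 8.59, 7.68, 8.48 and 8.14, an IL17A difference of -0.91. Socs1 stayed between 9.49 and 10.06. Jak2 had 0.12 with IL17A and 0.55 for medium added to IL17A, and Stat5a had 0.69 for the latter.

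Of 28 genes listed as Stat3 targets, 19 were measured for IL17A against untreated. Of these, 8 were higher and 1 was lower, against 2.17% and 2.29% of all genes tested. The median difference was 0.87 over the 16 above background on both arrays. It was -0.00 over all genes tested, which needed to be above background on only 1 of them. Many of the listed targets are also known targets of NF-kappa-B or of IL17A itself, so the list does not mark Stat3 activity alone. Cebpd, a transcription factor of the acute phase response, had levels of 11.26, 14.94, 10.94 and 14.32, and Bcl3, an atypical NF-kappa-B cofactor, 9.21, 12.30, 10.41 and 12.29. Both were high on the 2 arrays with IL17A, and Bcl3 was also called higher with medium alone, at 1.20. With medium alone, 4 of 17 listed targets measured were higher and 0 lower, against 2.45% and 2.97% of all genes tested. Saa3, an acute phase protein, had levels of 0.49, 9.49, 0.34 and 6.38, and without IL17A it was not well above background. It was at least 142-fold higher with IL17A than untreated and had a log2 difference of -3.11 for medium added to IL17A. Lcn2, an iron-binding acute phase protein, had 0.41, 8.00, 0.27 and 5.35, at least 50.5-fold higher with IL17A, and a log2 difference of -2.65 for medium added to IL17A. Ccnd1, a cell cycle gene, was the one lower with IL17A, at -1.42. In medium, 4 of 19 were higher with IL17A and 0 lower, against 2.86% and 1.82% of all genes tested. For medium added to IL17A, Saa1, Saa3 and Lcn2 were lower and Timp1 higher among 20 measured, against 3.11% and 3.22% of all genes tested. Lbp, another acute phase gene, had -0.36 there.

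Among 15 genes that regulate Il6 transcription or the stability of its mRNA, 5 were higher with IL17A and 0 lower, against 2.17% and 2.29% of all genes tested, with a median of 0.69. Zc3h12a, the RNase that degrades Il6 mRNA, had levels of 5.42, 9.48, 5.10 and 9.06. Nfkbiz, a nuclear cofactor needed for Il6 transcription in mouse cells, had 7.19, 10.93, 7.44 and 11.04. Both were high on the IL17A arrays, and for medium added to IL17A they differed by -0.42 and 0.11. Il6 had -1.33 there, and a link between these values was not tested. Nfkb1 had the largest difference in that list for medium added to IL17A, at -0.98. Of the 15, 0 were called there, against 3.22% higher and 3.11% lower of all genes tested. Of 5 genes for shedding of the interleukin-6 receptor, 0 were called in any comparison, against 1.82% to 4.29% of all genes tested per direction. Adam17, the main sheddase, stayed between 9.79 and 10.25.

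**Figure D4:**
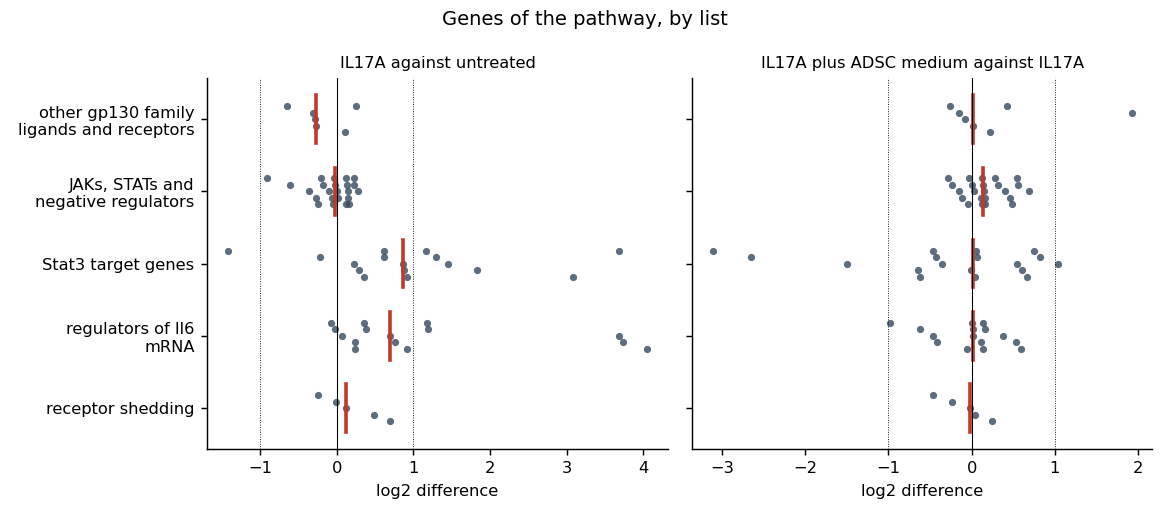
Log2 difference (horizontal axis) of each measured gene, by list, for IL17A against untreated (left) and medium added to IL17A (right). Points are genes well above background on both arrays, red bars are list medians, dotted lines mark 2-fold, and the horizontal scales differ between the panels. Stat3 targets and regulators of Il6 mRNA have medians of 0.87 and 0.69 on the left and 0.02 and 0.02 on the right.

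The genes whose profile over the 4 arrays was nearest to that of each member were found among 12099 genes by the root mean square distance of centred log2 levels. Nearest to Il6 were Urah (0.431), the chemokine genes Cxcl5 (0.440) and Cxcl1 (0.533), complement C3 (0.998) and Zc3h12a (1.108). Il6 itself lay 3.097 from a flat profile, so even the nearest were well apart from it in places: Cxcl5 had -1.14 with medium alone where Il6 had -0.05. Osmr was nearest to Neurl3 (0.120), Rgs16 (0.197) and the hyaluronan synthase Has1 (0.207), each higher with IL17A and with medium. Socs3 was nearest to Ch25h (0.031), the cholesterol 25-hydroxylase, whose levels of 4.82, 6.48, 5.18 and 6.30 give IL17A differences of 1.66 and 1.13 beside the 1.72 and 1.16 of Socs3. Il11 was nearest to Sema3g (0.032), Clcf1 to the growth factor Pdgfa (0.050) and Stat3 to the cytokine Tslp (0.029). Il6ra was nearest to Serp2 (0.018), Il6st to Ifna13 (0.012) and Lifr to Gk5 (0.006), and these 3 members lay only 0.262, 0.216 and 0.138 from a flat profile. The 4 arrays are few points for such a likeness, and each is a description.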

How the data were processed

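Total RNA of 4 IMS/N cultures, 1 per group, was labelled with Cy3 per the labels' protocols and read with Feature Extraction 12.1.1.1 per the file headers, which place the probes on mm9. Per the file headers, the deposited intensity values are signals after background subtraction and detrending inside each array; mean and background intensities served an alternative. Score columns hold flags of 0 or 1 per the file headers, and the other deposited files are the authors' lists of probe names. Quantile normalization by the authors is stated in the series design text, and R 3.5.1 in the submitters' processing notes.

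Log2 processed signals were quantile normalized here over the 4 arrays without control spots and outlier spots (91 to 126 per array). Saturated spots were not found. Spots were averaged per probe, and the probe with the highest mean stood for its gene. Probes were named through RefSeq accessions (28696), current symbols (5761), older symbols (163) or the file's name (6554). For a dim array the value was raised to that array's lowest one well above background, unless it was higher already, and such folds are given as "at least". That lowest value is over all probes of the array.

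The test was limma 3.58.1 (R 4.3.3), lmFit and eBayes with a trend, with Benjamini-Hochberg adjustment over genes above background on at least 2 arrays. Python 3.11.15, pandas 2.3.3 and NumPy 2.4.6 did the rest. On simulated data for the IL17A term over 14480 genes, the limma fit found 96 of 100 genes given a 2.83-fold change and 100 of 100 given an 8-fold change, and 5 of its 201 calls were false. The 2-fold rule for IL17A against untreated found 96 and 100, and 28 of its 224 calls were false. The simulated noise was normal, with a spread set by level alone and no true difference between the pairs of arrays. That is close to what the fit with a trend assumes, so these rates cannot show how it does on the real data. The number of arrays limits the precision.

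The members, lists and tests were chosen with earlier results of these data known. From each list the text names genes among up to 4 with the largest IL17A difference and up to 3 with the largest difference for medium added to IL17A, measured on both arrays. Called genes outside that rule (Ccnd1, Cntfr with medium, Timp1) and Socs1 were added after their values were seen. Cell type markers are also named by the arrays on which they were above background. A single gene that this rule names is not reported here. Of 80 list genes, 2 (Cebpb and Cebpd) stand in 2 lists.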

Additional observations from a re-analysis of the deposited data

Results flagged for a closer look

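Il11 is listed because its IL17A difference had opposite signs without medium (0.05) and with it (-0.41), a difference of -0.46 that was not tested. Lifr is listed for the same reason, with 0.03 and -0.30, a difference of -0.34 that was not tested. Both values without medium are below 1 array spread, and both changed sign under 75th percentile scaling.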

How the results depend on the processing

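With 1 array a group, no call has a replicate check, and differences with medium hold the slide as well. Dim probes (Il11, Il6ra, Lifr and Il6 without IL17A) limit what small differences can be resolved. Of 45 differences of the 9 genes, 36 kept their sign under 75th percentile scaling, median scaling, normexp correction and the mean of probes, and 9 did not, none of them called. Median scaling moved the median of all tested genes by 0.20 for IL17A against untreated, -0.21 for IL17A in medium, 0.22 for medium and -0.18 for medium added to IL17A.

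For IL17A in medium, 1 member was higher under median scaling, where 403 genes of the whole table were, and 1 at a 4-fold threshold. For medium alone, 1 was higher under normexp correction and 0 at 4-fold. For medium added to IL17A, 2 were higher at 1.5-fold and 0 were lower at 4-fold. For both treatments against untreated, 2 were higher at 4-fold. The share of all genes at the 1.5-fold and 4-fold thresholds is not given here. Counts at these thresholds are therefore not read as results about the members. In the limma fit, 1 member passed under 75th percentile scaling, 2 under median scaling, 2 with the mean of probes, 0 without a filter, 0 without a trend and 0 without the pair block, against 4. Those last 3 fits called 0, 0 and 8 genes in all, with 2839, 1852 and 885 at an unadjusted p under 0.05. Over the alternatives the limma adjusted p ran from 1.03e-57 to 0.352 for Il6, 0.00526 to 0.674 for Osmr, 0.00245 to 0.352 for Socs3 and 0.0443 to 1 for Clcf1. The lowest values for Il6 and Osmr came under median scaling, where the fit took the spread wholly from other genes. The size of these 2 values is therefore no measure of the evidence. Under the mean of probes Socs3 had an IL17A difference of 0.86, since its probe in the opposite orientation enters, and Stat3 had 1.02, so the count of 3 higher there holds Stat3 in place of Socs3. That Stat3 value takes in a dim untreated signal of its second probe that was not raised to the background limit. Under normexp correction the Il6 differences for IL17A were 5.32 and 4.07. The cause of the other changes was not tested.

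Over the whole table, 345 genes were higher and 363 lower for IL17A against untreated, against 263 and 533 under 75th percentile scaling, and 97 and 66 under normexp. For IL17A in medium, 460 and 292 became 723 and 171, and 76 and 22. For medium alone, 394 and 479 became 269 and 655, and 49 and 110. For medium added to IL17A, 511 and 494 became 775 and 372, and 73 and 122. For both against untreated, 549 and 697 became 128 and 177 under normexp. On RefSeq-matched probes only, an alternative chosen after seeing the data, the counts were 203 and 251 for IL17A in medium, 346 and 278 for medium alone, and 227 and 329 for medium added to IL17A.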
